A study of Mus musculus with 4 samples.

Results

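CUT&Tag signal for Ruvbl2 was examined at 10 genes that MLL fusion proteins are known to activate and that lie outside the Hox clusters: Meis1, Pbx3, Mef2c, Myb, Runx2, Eya1, Cdk6, Jmjd1c, Zeb2 and Arid3a. The genes were chosen by name, and all 10 were found among the 21887 protein-coding genes of the RefSeq table on the chromosomes used. CUT&Tag is an assay in which a transposase tethered through antibodies cuts and tags the DNA near the target protein. Haematopoietic stem cells (HSC, 2 libraries) were sorted as CD48-CD150+LSK cells from the bone marrow of Nup214fl/+ mice. Leukaemia stem cells (LSC, 2 libraries) were sorted from Nup214fl/+ mice with MLL-AF9-driven leukaemia as lineage-negative cells that were Sca-1-, c-Kit+, CD34+ and CD16/32+. The libraries are written HSC1, HSC2, LSC1 and LSC2 by group and replicate number, and values given in a row follow that order unless stated. Both groups thus carried 1 floxed Nup214 allele, and no Cre, treatment, time or age is given in the labels. The LSC surface phenotype is also that of normal granulocyte-monocyte progenitors, so leukaemia and stage of maturation cannot be told apart here. The labels do not say whether the 2 libraries of a group came from separate animals, so the spread between them may be technical, and the cell type field reads stem cell for all 4.

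MLL fusions such as MLL-AF9 join the DNA-binding part of the histone methyltransferase MLL to a partner that recruits transcription elongation factors. They keep a set of progenitor genes active in which Hoxa9 and its cofactor Meis1 are the best known, and many of these genes are also active in normal haematopoietic stem cells. Ruvbl2 is an ATPase of the AAA+ family that works with Ruvbl1 in chromatin remodelling and acetylation complexes and in the assembly of other large protein complexes.

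Each library had its own list of peaks called by the authors, and the unit of comparison was the peak and its rank within that list. Peaks were ranked by the authors' −log10 p. The 20000 strongest peaks of a library are called listed, and the 159842 strongest, the length of the shortest list on the chromosomes used, form equal long lists. The deposited lists held 161655 to 286107 peaks, and the background pileup recovered from them, a relative measure of depth, was 2.66 to 4.46 fragments. Read totals are not in the files, so sequencing depth is unknown. The weakest listed peak had a fold over background of 12.7 to 28.4, so equal ranks stand for different folds, and a fold is used here only as a peak's own value within its library. At marker genes of the sorted cells, 0, 1, 0 and 0 of 10 HSC genes and 4, 7, 4 and 5 of 10 granulocyte-monocyte progenitor genes had a listed peak at a gene end in HSC1, HSC2, LSC1 and LSC2. Of all protein-coding genes, 10.6%, 25.1%, 11.0% and 25.5% had one in the same order. The progenitor genes lay above these shares and the HSC genes below them in every library of both cell types. The counts did not separate HSC from LSC libraries, and a peak does not show expression. The antibody's catalogue number carries a suffix used for mouse monoclonals while the labelled secondary antibody is anti-rabbit, and no control library was analysed here, so the part of the signal that depends on Ruvbl2 was not tested.

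Promoter sequences frame the results at the start sites. The RefSeq promoter table (GRCm38.p6, the coordinates of mm10) held 13 windows for 7 of the 10 genes, each with 250 bases before and 50 after a start site. The 4 windows below are those on which the start-site results turn: the Meis1 start (chr11:19018920-19019219, minus strand, 15 CpG), the innermost Mef2c start, within 1 kb of which 3 of the 4 libraries had a peak (chr13:83573357-83573656, plus strand, 4 CpG), and the CpG-rich starts of Myb (chr10:21160935-21161234, minus strand, 40 CpG) and Jmjd1c (chr10:67126838-67127137, plus strand, 47 CpG), which had none within 1 kb. They read 5′ to 3′ along the gene, and capitals mark CpG dinucleotides, of which the median window of all 32817 in the table held 7.
Meis1: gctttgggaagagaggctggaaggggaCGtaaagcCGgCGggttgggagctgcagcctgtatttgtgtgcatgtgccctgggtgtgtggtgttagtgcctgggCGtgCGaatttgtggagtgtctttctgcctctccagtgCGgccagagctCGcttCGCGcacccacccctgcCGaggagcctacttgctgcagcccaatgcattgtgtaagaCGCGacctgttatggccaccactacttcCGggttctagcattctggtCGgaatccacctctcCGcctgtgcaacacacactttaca
Mef2c: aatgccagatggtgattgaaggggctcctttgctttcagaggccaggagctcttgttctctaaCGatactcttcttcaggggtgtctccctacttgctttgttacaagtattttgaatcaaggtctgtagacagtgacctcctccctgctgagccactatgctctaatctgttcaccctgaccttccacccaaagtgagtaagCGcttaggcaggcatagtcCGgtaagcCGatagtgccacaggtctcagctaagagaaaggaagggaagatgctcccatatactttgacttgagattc
Myb: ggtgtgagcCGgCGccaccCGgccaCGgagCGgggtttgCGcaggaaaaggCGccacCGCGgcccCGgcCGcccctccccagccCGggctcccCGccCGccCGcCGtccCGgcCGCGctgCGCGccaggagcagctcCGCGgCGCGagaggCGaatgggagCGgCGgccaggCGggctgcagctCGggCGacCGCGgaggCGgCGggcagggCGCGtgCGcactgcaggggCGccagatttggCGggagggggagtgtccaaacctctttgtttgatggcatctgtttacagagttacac
Jmjd1c: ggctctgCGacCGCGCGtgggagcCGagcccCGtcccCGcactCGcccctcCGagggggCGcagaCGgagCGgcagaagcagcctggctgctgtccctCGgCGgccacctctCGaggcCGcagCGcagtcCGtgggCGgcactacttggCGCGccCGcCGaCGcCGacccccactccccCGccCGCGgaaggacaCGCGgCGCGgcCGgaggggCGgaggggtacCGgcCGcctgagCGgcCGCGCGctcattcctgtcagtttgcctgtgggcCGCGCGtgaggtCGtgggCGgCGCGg

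The 10 loci, each taken as the gene with 20 kb on either side, held many peaks in every library, and most lay inside the genes and not at their ends. The full lists placed 222 peaks there in HSC1, 282 in HSC2, 309 in LSC1 and 187 in LSC2. Of these, 44, 35, 46 and 28 were listed. A listed peak lay in the locus of all 10 genes in 3 of the libraries and of 8 in LSC2, which lacked one at Eya1 and Zeb2. For all protein-coding genes the shares were 51.6%, 59.6%, 54.0% and 59.5%. In all 4 libraries this held for 8 of the 10 genes, beside 25.8% of all protein-coding genes. The 10 genes are long, with a median of 151 kb against 17.2 kb for all protein-coding genes, and a longer locus has more room for a peak.

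A gene end was defined as 1 kb on each side of an annotated end, and the remainder of the gene as its interior, because the table gives no exons and introns could not be told from exons. Arid3a alone had a listed peak at an end in all 4 libraries, which 2.91% of protein-coding genes had. With peaks shorter than 2 times the library's shortest left out, it no longer had one in all 4. In HSC1, 4 genes were listed at an end (Eya1, Cdk6, Jmjd1c and Arid3a), beside 10.6% of all genes. In HSC2 there were 2 (Pbx3 and Arid3a), beside 25.1%. LSC1 had 3 (Pbx3, Mef2c and Arid3a), beside 11.0%, and LSC2 had 2 (Pbx3 and Arid3a), beside 25.5%. The members' share was above the background in both replicate 1 libraries and below it in both replicate 2 libraries. In the replicate 2 libraries the 2 genes of 10 lie close to the background share. No gene was listed in both LSC libraries and neither HSC library, where the background was 0.932%, and none in the reverse class, where it was 0.873%. Each of Eya1, Cdk6, Jmjd1c and Mef2c was listed at an end in exactly 1 library (background 19.4%), and Meis1, Myb, Runx2 and Zeb2 in none (60.1%).

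**Figure D1:**
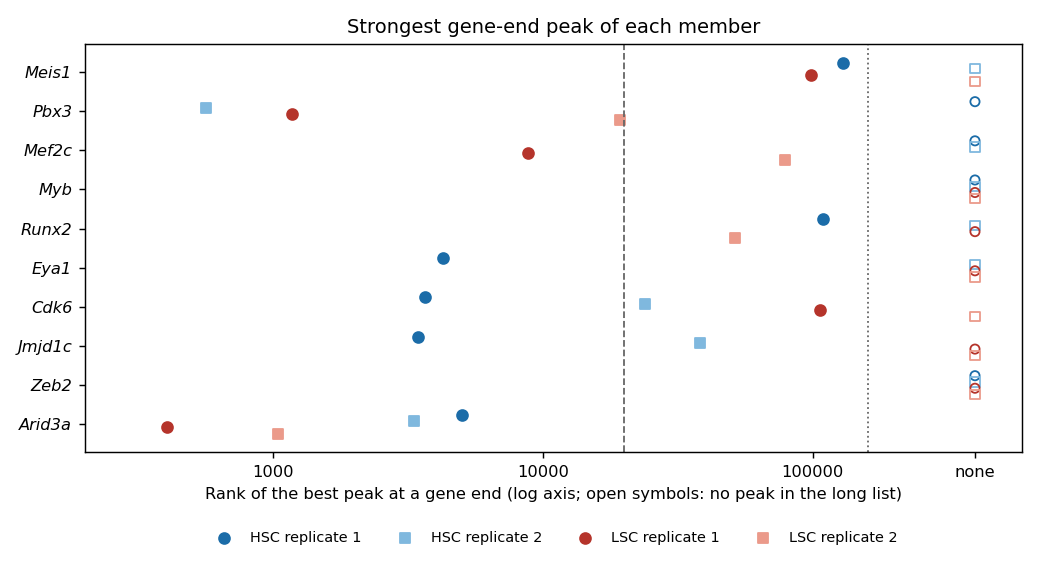
Rank of the strongest peak within 1 kb of either end of each gene, on a log axis where a smaller rank is a stronger peak, 1 symbol per library (circles replicate 1, squares replicate 2, blue HSC, red LSC). The dashed line is the limit of the 20000 listed peaks and the dotted line the end of the equal long lists, and open symbols at the right had no peak there. Arid3a alone has all 4 symbols left of the dashed line.

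In the equal long lists 6, 4, 5 and 4 of the 10 genes had an end peak, beside 38.2%, 53.0%, 39.6% and 53.5% of all genes. Eya1 had one in exactly 1 library (background 25.0%), and Myb and Zeb2 in none (18.2%). In these lists the cell types separated at 2 genes, in opposite directions. Mef2c had an end peak in both LSC libraries and neither HSC library, as 3.40% of all genes did, and Jmjd1c in both HSC libraries and neither LSC library, as 3.17% did. Both separations depended on the limits set. In its full list HSC2 had a peak of rank 243286 at the other end of Mef2c. At Jmjd1c, LSC2 had a peak of rank 23938 just outside the window. In the next count a missing peak was taken as weaker. The strongest end peak ranked nearer the top in LSC at both replicate numbers for Arid3a and Mef2c, beside 12.0% of genes. It ranked nearer the top in HSC at both for Cdk6 and Jmjd1c, beside 11.1%. At Mef2c and Jmjd1c this order repeats the separation given above. At Cdk6 the strongest end peak of HSC1 was at the high end (rank 3660). Those of HSC2 and LSC1 were at the low end (ranks 23855 and 106830), and LSC2 had none. The order at Cdk6 thus compares different ends. By this rule 2 of the 10 genes leaned each way.

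Listed peaks were denser by count at the ends than in the interior of the 10 genes in every library, and the interiors held more listed peaks than those of other genes. A peak that touched an end window by 1 bp was counted at the end and not in the interior. This rule by itself raises the end density over the interior density, for the 10 genes and for all genes. Per 100 kb of gene end, the 10 genes had 10.0, 5.0, 7.50 and 7.50 listed peaks in HSC1, HSC2, LSC1 and LSC2. These rest on only 4, 2, 3 and 3 peaks, and the 95% exact Poisson intervals of 0.605 to 18.1 in HSC2 and 1.55 to 21.9 in LSC1 held the interior density of the same library. All protein-coding genes had 2.90, 7.35, 3.03 and 7.48, and each of these lay within the interval of the 10 genes (2.72 to 25.6 in HSC1, 1.55 to 21.9 in LSC2). A difference from other genes at the ends was therefore not detectable from so few peaks. Per 100 kb of interior, HSC1 had 2.08 listed peaks (95% exact Poisson interval 1.41 to 2.95), against 0.860 for all genes. HSC2 had 1.41 (0.871 to 2.15) against 0.815. LSC1 had 2.35 (1.63 to 3.26) against 0.922, and LSC2 had 1.27 (0.767 to 1.99) against 0.797. The interior density was thus 2.42, 1.73, 2.54 and 1.60 times that of all genes, and the interval reached the value of all genes in LSC2 alone. These intervals cover counting error only.

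The excess in the interiors was spread over most genes in replicate 1 and was not detectable in replicate 2 once Cdk6 and Arid3a were left out. Of the 10 genes, 8 lay above the interior density of all genes in HSC1 and 9 in LSC1, but 5 in each replicate 2 library. Without Arid3a and Cdk6, a choice made after seeing the data, the ratio was 1.82 in HSC1 and 2.29 in LSC1. Without Arid3a alone it was 1.42 in HSC2 and 1.54 in LSC2, and without Cdk6 alone 1.41 and 1.16. Without both it was 1.06 in HSC2 and 1.08 in LSC2, where the intervals (0.430 to 1.54 peaks per 100 kb in both) held the value of all genes. The ratio of end to interior density was 4.81, 3.55, 3.20 and 5.89 for the 10 genes and 3.37, 9.01, 3.28 and 9.39 for all genes in the same order. In both replicate 2 libraries the ratio was lower at the 10 genes than at genes in general, from 2 and 3 end peaks.

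**Figure D2:**
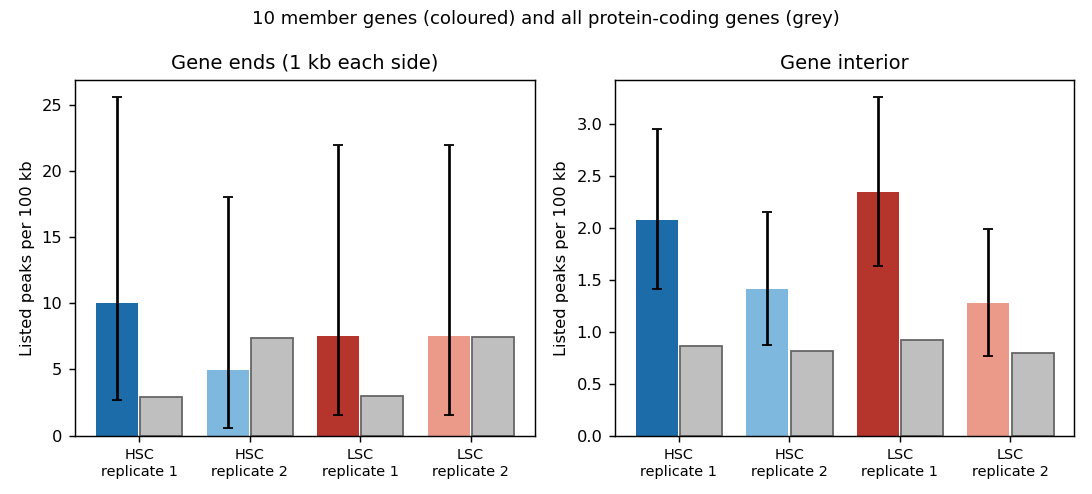
Listed peaks per 100 kb of gene end (left) and of gene interior (right) for the 10 genes in colour and all protein-coding genes in grey, 1 pair of bars per library, with 95% exact Poisson intervals on the coloured bars. In the interior the coloured bars, from 1.27 to 2.35, stand above the grey ones, from 0.797 to 0.922, in every library.

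Peaks near the start sites of the promoter table differed between libraries. A listed peak lay within 1 kb of 3 of the 13 start sites in HSC1 (background 7.01% of all start sites), of 1 in HSC2 (17.9%), of 0 in LSC1 (7.56%) and of 2 in LSC2 (18.5%). In the equal long lists the counts were 7, 2, 5 and 5, beside 23.7%, 38.2%, 25.0% and 38.6%. Several of these windows belong to 1 gene and overlap, so they are not independent. The start sites with a listed peak were those of Mef2c and Zeb2 in HSC1, Cdk6 in HSC2 and Mef2c in LSC2. No peak of any strength lay within 1 kb of the start of Myb, the CpG-rich start of Jmjd1c or the outermost start of Zeb2 in any library, as for 26.8% of all start sites. Among the 1285 windows with at least the 40 CpG of the Myb window this share was 18.2%, so the Myb start belonged to a minority of CpG-rich starts without a peak.

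Meis1 encodes a TALE homeodomain protein that binds DNA with Hoxa9 and is the central non-Hox target of MLL fusions. Its gene lies at 18880428 to 19019651 of chromosome 11 on the minus strand. At its start, in the window printed above, HSC1 had a weak peak of fold 8.20 (rank 129201) and LSC1 a weak peak of fold 12.1 (rank 98239), and neither replicate 2 library had a peak within 1 kb. These peaks did not overlap, at 19018682 to 19018997 in HSC1 and 19019017 to 19019335 in LSC1. Both cell types of replicate 1 thus had a weak peak near the start, at different places, and neither of replicate 2 had one. Of all start sites, 23.7% in HSC1 and 25.0% in LSC1 had a long-list peak within 1 kb. Its listed peaks, 4, 1, 5 and 2 in HSC1, HSC2, LSC1 and LSC2, all lay in the interior except 1 in HSC1, which lay 8.98 kb beyond the start-side end. The strongest peak differed between libraries in place as well as rank. It ranked 6619 (fold 37.7) at that site in HSC1 and 11167 (fold 14.6) at 61.4 kb inside the gene in HSC2. In LSC1 it ranked 4058 (fold 64.1) at 37.9 kb from the nearest end, and in LSC2 10582 (fold 21.6) at 16.1 kb. No site of Meis1 was found in all 4 long lists, a class of 0.601% of regions over the genome. Of its 61 merged regions 50 were seen in 1 library only, beside 86.6% of regions over the genome.

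Pbx3 encodes another TALE homeodomain protein, which stabilises the Hoxa9 and Meis1 complex. The gene spans 34171457 to 34372045 of chromosome 2, and 1 site just beyond its high end stood out. At 34372548 to 34373535 a peak ranked 561 in HSC2 (fold 40.8), 1170 in LSC1 (fold 91.3) and 19215 in LSC2 (fold 18.4), with summits within 142 bp. HSC1 had no peak there of any strength, and the peak of LSC2 was only just among the listed. The site was therefore shared by 1 HSC and both LSC libraries. The interior of Pbx3 held 3, 0, 0 and 1 listed peaks in 199 kb, fewer per length than that of all genes in the last 3 libraries.

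Mef2c, a MADS-box transcription factor gene of lymphoid and myeloid progenitors, carried a site near its innermost start in all 4 long lists. The gene spans 83504017 to 83667079 of chromosome 13 on the plus strand, and the region ran from 83571917 to 83573525, just upstream of the start at 83573607 whose window is printed above. The strongest peak there ranked 194 in HSC1 (fold 92.4), 38548 in HSC2 (fold 10.7), 36562 in LSC1 (fold 21.6) and 2234 in LSC2 (fold 36.4). It was strong in 1 library of each cell type and weak in the other, so the ranks did not divide HSC from LSC. Within 1 kb of the middle start, at 83523656, peaks of any strength lay in all 4 libraries, a property of 7.40% of all start sites, and the best was listed in LSC2 alone (rank 19061).

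Of the 62 merged regions of Mef2c, 5 were in both LSC long lists and neither HSC long list, the most of the 10 genes. In the reverse direction there was 1. Over the genome these classes made up 1.61% and 1.80% of regions. The long lists held 13, 19, 32 and 19 peaks at this locus in HSC1, HSC2, LSC1 and LSC2, so LSC1 had the most peaks to share. The strongest of the 5 lay at 83579308 to 83579768, 6028 bp downstream of the innermost start, where the peak ranked 2372 in LSC1 (fold 76.7) and 26432 in LSC2 (fold 16.3). The summits of these peaks were 1 bp apart, and no peak of any strength lay there in either HSC library. Another of the 5 was at the 3′ end of the gene, at 83666259 to 83666724, with ranks of 8824 and 79284. Beside these, 3 regions of Mef2c were shared by HSC2 and LSC1 alone, so pairs across the cell types occurred too.

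Runx2 and Myb, which encode a Runt-domain factor best known from bone and the progenitor transcription factor c-Myb, had no listed peak at an end. Runx2 is the longest of the 10 genes (44495987 to 44814797 of chromosome 17, minus strand) and held 5, 3, 5 and 1 listed peaks, all in its interior. Its strongest peaks ranked 1452 (fold 54.7) in HSC1 and 9346 (fold 15.4) in HSC2. In LSC1 and LSC2 they ranked 3504 (fold 67.7) and 12556 (fold 20.8). Each lay at another place in the gene, and the 1 region found in all 4 long lists (44695158 to 44696708) was weak in every library, with ranks from 57712 to 139230. Of its 103 merged regions, 87 came from a single library, beside 86.6% of regions over the genome.

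Myb (21124930 to 21160984 of chromosome 10, minus strand) had its strongest LSC peaks on either side of its unmarked start. In LSC1 a peak of rank 1435 (fold 86.9) had its summit 4558 bp upstream of the start, and in LSC2 a peak of rank 2913 (fold 32.6) had its summit 1894 bp downstream. These were different sites, and neither HSC library had a peak of any strength within 5 kb of the start. The strongest HSC peaks of the locus ranked 3295 (fold 45.9) in HSC1, 13.8 kb beyond the other end of the gene, and 12992 (fold 14.0) in HSC2, 13.0 kb inside it. The nearest summit of HSC1 lay just beyond that window, 5366 bp upstream (rank 108594), so the window sets this difference, and the LSC libraries shared no position.

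Zeb2 and Eya1 were the genes without a listed peak in LSC2. Zeb2 (44983512 to 45117442 of chromosome 2, minus strand) encodes a zinc finger repressor needed for haematopoietic differentiation. Its strongest peak in HSC1, rank 803 and fold 61.2, had its summit 1254 bp downstream of the start at 45113253. Weak peaks lay within 1 kb of that start in the other 3 libraries, ranking 189221 in HSC2, 35396 in LSC1 and 135148 in LSC2. The strongest peaks of those libraries were elsewhere, at ranks 11998, 2863 and 24249. Eya1 (14168953 to 14311035 of chromosome 1) encodes a coactivator and phosphatase that works with homeodomain factors of the sine oculis family. A region about 6.31 kb inside its high end, at 14304457 to 14305274, was listed in 3 libraries, with ranks of 8857 in HSC1 (fold 33.9), 7055 in HSC2 (fold 16.5) and 2555 in LSC1 (fold 75.0). LSC2 had no peak there. Its listed end peak in HSC1, rank 4263 and fold 42.9, had no counterpart within 1 kb of an end in the other libraries.

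Arid3a, which encodes an AT-rich DNA-binding factor of B cell and stem cell development, was the most densely marked of the 10. The gene is the shortest (79927043 to 79955018 of chromosome 10) and lies among close neighbours. The region at its low end, 79926096 to 79928093, held peaks that ranked 5018 in HSC1 (fold 41.0), 3320 in HSC2 (fold 20.6), 403 in LSC1 (fold 115) and 1038 in LSC2 (fold 48.9). Both LSC libraries ranked it nearer the top than both HSC libraries. The summits were spread over 815 bp, so the libraries shared the gene end and not a point within it. With 2 libraries against 2, the smallest two-sided p that an exact permutation test can give is 0.33, and none of the rank orders reported here can pass a test.

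Many listed peaks of the Arid3a locus lay in its flanks, which hold neighbouring genes. Of the listed peaks there, 3 of 6, 9 of 14, 4 of 6 and 6 of 9 were in the flanks in HSC1, HSC2, LSC1 and LSC2. The gene itself is 28.0 kb of the 68.0 kb of this locus, so the flanks are also most of its length. The other region of the 10 loci that was listed in all 4 libraries, 79906624 to 79909208, overlapped Med16, a Mediator subunit gene, with ranks of 2053, 458, 13944 and 608. A region whose median summit lay 29 bp from an end of Wdr18 (79959445 to 79960671) was found in all 4 long lists and listed in 3 libraries. Of the 38 merged regions of this locus, 1 was in both LSC and neither HSC library and 5 in both HSC and neither LSC library. Over the genome these classes made up 1.61% and 1.80% of regions. The LSC region (79919669 to 79920674, ranks 8640 and 17561) overlapped Kiss1r, had summits 10 bp apart and had no HSC peak of any strength.

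**Figure D3:**
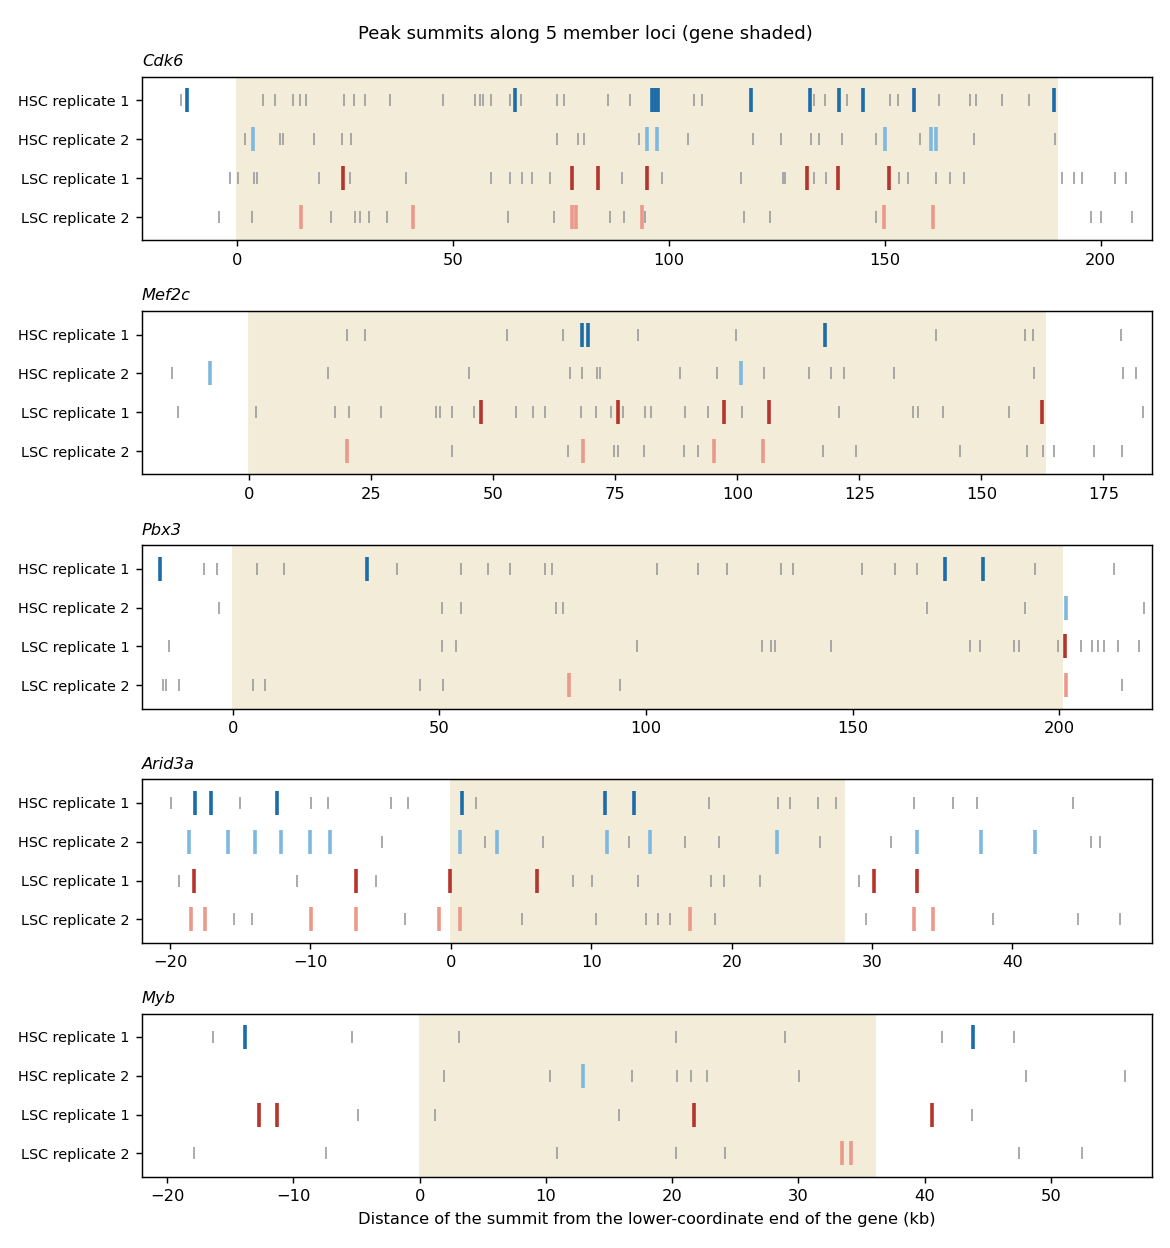
Position of every peak summit along 5 of the loci, in kb from the lower-coordinate end of the gene, which is shaded, 1 row per library. Tall coloured marks are listed peaks and short grey marks are other peaks of the equal long lists. The high end of Pbx3 and the low end of Arid3a show marks one under another, while most marks in Cdk6, Mef2c and Myb stand at places of their own.

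Cdk6, the cyclin D-dependent kinase of G1 on which MLL-rearranged leukaemia cells are known to depend, had the most listed interior peaks of the 10 genes in every library. The gene spans 3341004 to 3531008 of chromosome 5 on the plus strand. Its interior of 188 kb held 9 listed peaks in HSC1, 6 in HSC2 and 7 in each LSC library. This was 4.79, 3.19, 3.72 and 3.72 per 100 kb, several times the density of all genes in each. The counts of the libraries overlapped between the cell types. At its start (3343893) only HSC2 had a listed peak within 1 kb, at rank 19854 and so barely listed, and HSC1 had no peak of any strength within 1 kb.

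The sites of Cdk6 were shared in several combinations. A broad region 92.6 kb from its high end, 3435612 to 3438773, held peaks of rank 1752 in HSC1 (fold 52.8), 1320 in HSC2 (fold 29.2) and 2504 in LSC1 (fold 75.6). The summits of these peaks were spread over 2464 bp, at 3438467 in HSC1, 3438365 in HSC2 and 3436003 in LSC1. The strongest peaks of the HSC libraries thus lay together, and that of LSC1 stood apart within the merged region. LSC2 had its nearest listed peak just below it, at 3434201 to 3434863 with rank 3515. At 3490046 to 3492783 all 4 long lists had a peak, ranking 67559, 18747, 703 and 11756 in HSC1, HSC2, LSC1 and LSC2. At 3501251 to 3503689 the ranks in the same order were 93293, 9026, 21414 and 2338. At the first of these places both LSC libraries ranked nearer the top than both HSC libraries. The summits there were spread over 1351 bp, with LSC2 (3490875) beside HSC2 (3490977) and LSC1 (3491915) nearer HSC1 (3492226). This order therefore does not compare 1 point. At the other place the cell types crossed, with summits spread over 1728 bp. They also crossed at the remaining region in all 4 long lists, 3366962 to 3368485, with ranks of 115623, 64557, 22792 and 69566. The 1 region of the gene that was listed in both LSC libraries and had no HSC peak of any strength lay at 3417982 to 3418896, 74614 bp downstream of the start. There the peak ranked 11684 in LSC1 (fold 37.2) and 3682 in LSC2 (fold 30.1), with summits 35 bp apart. In the reverse direction, the 3′ end of the gene (3529742 to 3530512) had a peak in both HSC libraries, ranking 3660 (fold 44.8) and 30779 (fold 11.4), and none in the LSC long lists.

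Jmjd1c encodes a JmjC-domain protein of the H3K9 demethylase family that MLL-AF9 leukaemia cells are known to need. The gene runs from 67096351 to 67256326 of chromosome 10 on the plus strand. A region at its low end, the start side, at 67097162 to 67098158 with its median summit 1.20 kb inside the gene, had a peak in both HSC libraries, ranking 3451 in HSC1 (fold 45.4) and 38135 in HSC2 (fold 10.7). Neither LSC library had a long-list peak within 1 kb of either end. LSC2 had a peak of rank 23938 just beyond that window, at 67098514 to 67099700. The HSC2 peak reached into the window but had its summit beyond it, at 67097838, so the window sets part of this difference. An end of the neighbouring gene Reep3 lay 562 bp from the median summit of the HSC region, so the site cannot be given to one of the genes. The CpG-rich inner start printed above, at 67127088, had no peak within 1 kb in any library. The strongest interior peak of all 10 genes by rank in LSC was at Jmjd1c: rank 271 and fold 130 in LSC1, 11.4 kb inside the low end. It was seen in that library alone, and the strongest peak of LSC2 ranked 11932.

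The number of peaks per locus was compared between LSC and HSC at each replicate number, in the equal long lists, so that list length did not set the count. Meis1 was the 1 gene with more peaks in LSC at both numbers: 11.2 and 6.70 per 100 kb in HSC1 and HSC2, and 14.5 and 9.49 in LSC. The values of HSC1 and LSC2 crossed, and the means were 8.93 ± 3.16 (SD, n = 2) and 12.0 ± 3.55 (SD, n = 2; exact permutation p = 0.667). Of all protein-coding genes, 20.5% had more peaks in LSC at both numbers. Myb, Cdk6, Jmjd1c and Arid3a had fewer in LSC at both numbers, beside 16.2% of genes. This count depended on the list: it was 1 with the 40000 strongest peaks, where 2 genes were denser in LSC, and 2 with the full lists. At Myb the values were 11.8 and 13.2 in HSC1 and HSC2 and 10.5 and 11.8 in LSC, which means 9, 10, 8 and 9 peaks. Jmjd1c had 11.0 and 8.50 in HSC and 8.50 and 6.00 in LSC. At Arid3a they were 32.4 and 35.3 in HSC and 23.5 and 32.4 in LSC.

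None of the 10 genes had both LSC values on one side of both HSC values, a pattern that 12.3% of all genes showed upward and 8.99% downward. At Myb, Jmjd1c and Arid3a the higher LSC value equalled the lower HSC value, so these genes missed the downward pattern by a tie alone. Mef2c missed the upward pattern by a tie alone. The exact permutation p was 0.667 or 1.00 at every gene. Cdk6 had 19.1 and 11.3 peaks per 100 kb in HSC and 15.7 and 10.9 in LSC, so its replicates differed more than its cell types. The largest single gap between cell types was at Mef2c in replicate 1, with 6.40 in HSC and 15.8 in LSC, while both replicate 2 libraries had 9.36. Pbx3, Runx2, Eya1 and Zeb2 likewise differed in opposite directions at the replicate numbers or were equal at 1 of them. The median over the 10 genes was 11.1, 8.29, 11.3 and 7.97 in HSC1, HSC2, LSC1 and LSC2, beside 7.23, 8.44, 7.94 and 8.38 for all genes. The 10 genes were above the genes at large in replicate 1 and near them in replicate 2, in both cell types.

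**Figure D4:**
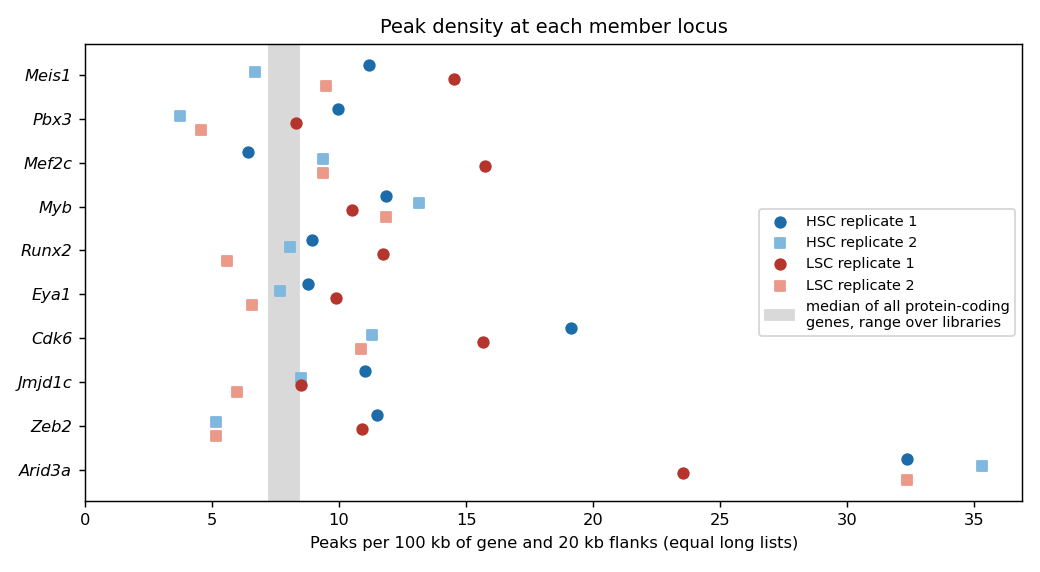
Peaks per 100 kb of each gene with its 20 kb flanks in the equal long lists, 1 symbol per library (circles replicate 1, squares replicate 2, blue HSC, red LSC), with the range of the median of all protein-coding genes shaded. The ranges of red and blue symbols meet at every gene, by a tie alone at Mef2c, Myb, Jmjd1c and Arid3a. Arid3a lies highest in all 4 libraries.

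Overlapping peaks of the long lists were merged into regions to ask how often a site recurred. The 10 loci held 601 regions, and 482 of them (80.2%) came from 1 library, against 86.6% of regions over the genome. Regions in all 4 libraries numbered 11 (1.83%, genome 0.601%), of which 6 lay at Arid3a, 3 at Cdk6 and 1 each at Mef2c and Runx2. Without the Arid3a locus there were 5 of 563 (0.888%). Regions in both LSC libraries only numbered 13 (2.16%, genome 1.61%) and those in both HSC libraries only 18 (3.00%, genome 1.80%). Of the pairs that cross the cell types, the replicate 1 libraries alone shared 13 (2.16%, genome 1.41%) and the replicate 2 libraries 12 (2.00%, genome 2.61%). HSC1 with LSC2 shared 14 (2.33%, genome 1.62%) and HSC2 with LSC1 17 (2.83%, genome 1.76%). The replicate 2 pair was the 1 pair below its genome share, and the counts of the same-type pairs, 13 and 18, lay in the range of the crossing pairs or 1 above it. Summits lay within 200 bp of each other in 9 of the 13 LSC regions and 9 of the 18 HSC regions, and in 10, 6, 5 and 9 of the crossing pairs in the order given. Of the 11 regions in all 4 libraries, 1 had all its summits within 200 bp.

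Other known targets of MLL fusions, 26 genes that include the Hoxa cluster, were listed at a gene end in 1, 3, 2 and 4 cases in HSC1, HSC2, LSC1 and LSC2. None was listed in all 4 libraries (2.91% of all genes), in both LSC only (0.932%) or in both HSC only (0.873%). Among 26 genes, absence from classes this rare says little about these targets. In no library were 19 listed (60.1% of all genes). Beside the 10.6%, 25.1%, 11.0% and 25.5% of all genes, the shares per library lay below the background in each library. Myc, named here after its values were seen, came closest to being common, with ranks of 13900 in HSC2, 14132 in LSC1 and 11575 in LSC2. Across both sets of genes, only Arid3a, Pbx3 and Myc were listed in 3 or more libraries.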

How the data were processed

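CUT&Tag peak lists of 4 libraries (2 HSC, 2 LSC, grouped by the sample titles) were used. Per the submitters' processing notes, the tools were FastQC 0.11.5, Bowtie2 2.2.9, MACS2 and ChIPseeker and the build was mm10. Calling thresholds and duplicate handling are not stated there. The authors called peaks per library and deposited for each a score, a fold (ratio of summit pileup to background), a −log10 p-value, a −log10 q-value and a summit offset. The deposited fold gave a whole-number pileup (within 0.05) for 100% of the peaks under an upper fold limit, with 1 background for each library. Peaks of higher fold were not part of this check. Peaks outside the autosomes, X and Y (1133 to 2099 per library) were not used here, and the others were ranked by −log10 p, ties by position.

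The 20000 strongest peaks were called listed, and the 159842 strongest formed equal long lists. Overlap meant at least 1 bp. Genes came from RefSeq (GRCm38.p6), without exons, so gene interiors replaced the planned introns; promoter windows and strand came from the RefSeq promoter table. All 10 members are named; their sites are the strongest peak per library and the regions in all 4, both LSC only or both HSC only, and other genes are the listed targets and the neighbours of flank peaks. The members and lists were chosen with earlier results of these data known. Counts were set beside those of all protein-coding genes, and locus densities were compared by a two-sided exact permutation test. No test was adjusted, since none can pass. Intervals are exact Poisson at 95% and cover counting error only, and sequencing depth is unknown. The procedure was tested on simulated data. Alternatives were other list lengths, overlap rules, window sizes, peak lengths and each library left out; leaving out Arid3a and Cdk6 was chosen after seeing the data. Python 3.11.15, numpy 2.4.6, pandas 2.3.3 and scipy 1.17.1 were used.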

Additional observations from a re-analysis of the deposited data

How the results depend on the processing

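Values for libraries are given in the order HSC replicates 1 and 2, LSC replicates 1 and 2. The ratio of end to interior density at the 10 genes stayed above 1 under every alternative but moved widely, since it rests on 2 to 4 end peaks: it was 10.7, 7.46, 4.86 and 9.32 with the 10000 strongest peaks, 2.81, 5.33, 1.67 and 2.94 with 40000, 1.51, 1.75, 1.39 and 1.69 with the equal long lists, 1.51, 1.39, 1.36 and 1.41 with the full lists, 1.95, 1.15, 1.38 and 3.56 with ends of 3000 bp, and 2.33, 6.48, 1.96 and 3.55 among peaks at least 2 times the shortest length. With at least 50% of the peak in the window it was 1.78 and 3.92 in the replicate 2 libraries. Where a touch of 1 bp counts a peak at the end, the counting rule itself raises the ratio, so values little above 1 do not show denser ends. The interior density over that of all genes was 1.75, 1.24, 1.77 and 1.08 in the equal long lists, and 1.82, 1.06, 2.29 and 1.08 without Arid3a and Cdk6. Members with an end peak per library numbered 6, 4, 5 and 4 in the equal long lists and 6, 6, 6 and 4 in the full lists. HSC replicate 2 had 4 with 40000 peaks and 1 with at least 50% of the peak in the window. LSC replicate 2 had 1 with 10000 peaks, with at least 50% in the window and among the longer peaks, where HSC replicate 1 had 2.

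Members listed at an end in all 4 libraries numbered 2 with the full lists, 0 among the longer peaks and 1 to 2 with a library left out. LSC-only members numbered 1 in the equal long lists and 0 to 1 with a library left out. HSC-only members numbered 2 with 40000 peaks, 1 in the equal long lists, in the full lists and among the longer peaks, and 0 to 3 with a library left out. Regions in all 4 libraries numbered 1 with summit windows of 200 bp, 7 with overlap of at least 50%, 4 among the longer peaks, 3 with 40000 peaks, 5 without Arid3a and 8 to 18 with a library left out. LSC-only regions numbered 8 among the longer peaks, 20 with the full lists, 6 with 40000 peaks and 15 to 178 with a library left out. HSC-only regions numbered 7 among the longer peaks, 4 with 40000 peaks and 25 to 164 with a library left out. Where the library left out is of the named cell type, its class asks for 1 library instead of 2. Members denser in LSC at both numbers were 2 with 40000 peaks, and those less dense were 1 with 40000 peaks and 2 with the full lists. With 40000 peaks more members were thus denser than less dense in LSC, and LSC-only regions outnumbered HSC-only regions there and among the longer peaks, the opposite of the order reported. No paired analysis was possible because the peak lists enter no model and the groups share only 2 numbers; values at each number stand side by side in the text.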
